A study of Mus musculus with 12 samples.

Results

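The dystrophin-associated complex was examined through 8 of its genes, Dmd, Utrn, Dag1, Sgca, Sgcb, Sgcd, Dtna and Sntb1, in ATAC-seq peak lists of C2C12 cells. C2C12 is an established mouse myoblast line that fuses into myotubes when serum is withdrawn, and ATAC-seq maps open chromatin by the cuts of the Tn5 transposase. A peak was counted for a gene when its centre lay in the gene body or within 10 kb of it. By this rule 32 of 34118 peaks of the wild-type (WT) list and 29 of 27187 peaks of the Runx1 knockout (KO) list belonged to the 8 genes. The groups were WT and Runx1KO C2C12 cells in growth medium with 20% FBS, labelled day 0 and collected near confluency, with 3 samples per genotype. RUNX1, the factor removed in the KO cells, is a DNA-binding transcription factor of the RUNX family. Whether the KO cells were 1 clone or a pool is not given in the sources used here. Samples at day 2 of differentiation medium were not analysed here.

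The complex links the actin cytoskeleton of the muscle fibre to the surrounding matrix. Dystrophin binds actin inside the cell and β-dystroglycan at the membrane, α-dystroglycan binds laminin outside, and the sarcoglycans stabilise this link. Dystrobrevins and syntrophins dock signalling proteins on the inner side, and loss of dystrophin or of α-, β- or δ-sarcoglycan causes muscular dystrophy.

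Every peak name in both lists carried the label of the replicate 1 library, so the peak values carry no replicate error. Whether the other replicates decided which peaks were kept is not given in the sources used here, and 61.6% of WT and 55.6% of KO call numbers remain in the lists. With 1 list per genotype no p-value between genotypes is given, and the depth of the libraries is unknown. In a bulk library, a site open in few cells and a site weakly open in all cells cannot be told apart. A peak is called shared when it overlaps a peak of the other list by at least 1 bp, and specific otherwise. These classes were identical to the deposited ones for all 9318 WT-specific, 2607 KO-specific and 24800 shared WT intervals. The call numbers in the peak names skip values, so each list may lack calls that were made, and the absence of a peak from a list does not show that no call had been made there. Of 8 myoblast marker genes, 6 had peaks in both lists, among them Myod1, Cdh15 and Des with 2 shared peaks each, and Myf5 and Myog had none. Of 13 markers of fibroblasts, endothelium, leukocytes, epithelium and nerve, 7 had a WT peak and 5 a KO peak. Cd68 had 3 WT and 2 KO peaks, Pdgfra and Pecam1 2 and 1 each, Dcn 1 and 1, and Cdh5 1 and 2. Kdr and Cdh1 had 1 WT peak each, and Lum, Ptprc, Cd3e, Epcam, Sox10 and Snap25 had none. What other cell types contribute to the peaks was not tested.

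Of the 8 genes, 7 had a WT peak and 6 a KO peak. By comparison, among all 21631 protein-coding genes of the autosomes and the X chromosome, 64.6% had a WT peak and 60.8% a KO peak. Dmd had no peak in either list and Dtna had peaks in the WT list only. Utrn, Sgcd and Sntb1 held most of the peaks, with 8, 7 and 8 in the WT list and 8, 9 and 7 in the KO list.

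**Figure D1:**
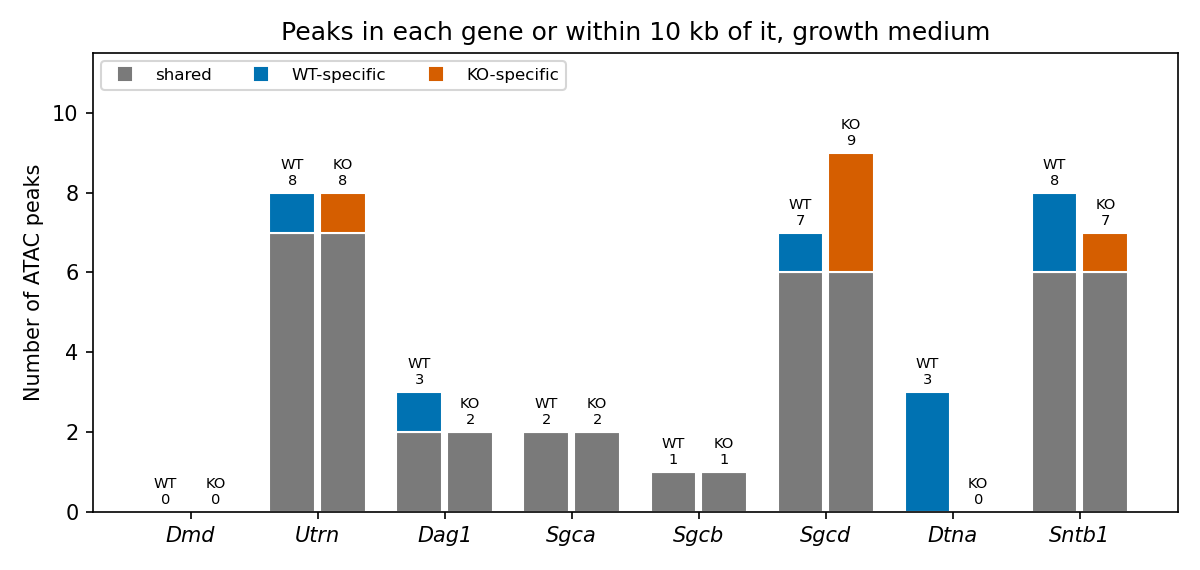
Number of ATAC peaks per gene (vertical axis) in the WT list (left bar) and the KO list (right bar) for the 8 genes, split into shared peaks (grey), WT-specific peaks (blue) and KO-specific peaks (orange), from 1 list per genotype. Utrn, Sgcd and Sntb1 have 6 or 7 shared peaks each, the 3 Dtna peaks are all WT specific, and Dmd has none.

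The starts of the genes came first, because a peak there marks an open promoter. The RefSeq table of GRCm38.p6 held start windows for 6 of the 8 genes, with 2 windows each for Dmd and Dag1, and none for Dtna and Sntb1. The 250 bases before the start lay at least partly in a peak of both lists for Dag1, Sgcb and Sgcd, and in no peak of either list for Dmd, Utrn and Sgca. The Utrn window belongs to a start inside the gene and not to its annotated 5′ end. A shared peak was centred 0.572 kb (WT) and 0.628 kb (KO) inside that end, so the Utrn window does not describe it. Windows of 250 bases before and 50 bases after the start overlapped a WT peak at 3 of the 6 genes, against 31.7% of all genes in the table, and a KO peak at the same 3 genes, against 29.0%. The bases before the start are shown, 5′ to 3′ on the gene's strand, for 3 genes with a peak at the start and 2 genes without one. Capitals mark matches to the letters searched on both strands, TGTGGT and TGCGGT for RUNX, CAGCTG and CAGGTG for the E-box, CCGGAA for ETS, TGACTCA and its reverse complement TGAGTCA for AP-1, GGGCGG for SP and CCAAT for NFY factors.
Dag1 (chr9:108263959-108264208, minus strand): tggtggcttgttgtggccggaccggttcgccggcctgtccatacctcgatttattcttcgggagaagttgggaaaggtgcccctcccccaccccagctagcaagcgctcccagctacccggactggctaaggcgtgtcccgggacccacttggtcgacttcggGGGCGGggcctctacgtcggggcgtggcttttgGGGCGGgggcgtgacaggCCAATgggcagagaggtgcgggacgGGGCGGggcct
Sgcb (chr5:73647738-73647987, minus strand): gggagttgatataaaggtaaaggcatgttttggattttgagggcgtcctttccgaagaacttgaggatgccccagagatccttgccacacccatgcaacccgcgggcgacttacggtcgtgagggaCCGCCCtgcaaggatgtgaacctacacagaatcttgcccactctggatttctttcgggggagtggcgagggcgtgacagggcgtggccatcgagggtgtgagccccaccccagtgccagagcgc
Sgcd (chr11:47379326-47379575, minus strand): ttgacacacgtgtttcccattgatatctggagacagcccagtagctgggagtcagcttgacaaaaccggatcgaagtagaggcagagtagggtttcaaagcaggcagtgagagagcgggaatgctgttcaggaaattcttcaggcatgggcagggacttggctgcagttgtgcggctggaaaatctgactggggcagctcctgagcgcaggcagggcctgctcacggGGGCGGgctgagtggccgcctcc
Sgca (chr11:94976328-94976577, minus strand): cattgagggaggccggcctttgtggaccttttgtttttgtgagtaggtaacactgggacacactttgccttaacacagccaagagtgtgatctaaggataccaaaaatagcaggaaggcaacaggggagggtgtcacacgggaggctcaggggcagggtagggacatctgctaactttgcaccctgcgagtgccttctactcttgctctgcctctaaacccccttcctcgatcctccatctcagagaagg
Dmd, first window (chrX:82948620-82948869, plus strand): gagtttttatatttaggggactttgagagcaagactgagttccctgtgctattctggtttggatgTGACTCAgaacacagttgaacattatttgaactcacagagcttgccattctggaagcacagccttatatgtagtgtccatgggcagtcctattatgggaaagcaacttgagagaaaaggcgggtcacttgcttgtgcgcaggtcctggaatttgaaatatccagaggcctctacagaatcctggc
Dmd, second window (chrX:85048045-85048294, plus strand): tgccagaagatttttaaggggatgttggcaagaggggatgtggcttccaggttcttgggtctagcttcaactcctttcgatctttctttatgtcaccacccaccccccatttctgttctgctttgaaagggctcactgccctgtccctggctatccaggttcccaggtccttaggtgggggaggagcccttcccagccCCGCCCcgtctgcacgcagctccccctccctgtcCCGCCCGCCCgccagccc

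The windows with a peak held more CpG. The Dag1 window shown had 67.6% G and C with 21 CpG, the Sgcb window 58.4% with 14 CpG and the Sgcd window 58.0% with 9 CpG. The Sgca window had 52.8% with 4 CpG, the Utrn window, inside the gene, 46.8% with 2 CpG and the first Dmd window 45.2% with 2 CpG. The second Dmd window, toward the 3′ end of the gene, had 60% G and C with 7 CpG and lay in no peak. Over all 32619 windows, those in a WT peak had a median of 61.2% and 18 CpG, and those in no WT peak 49.2% and 3 CpG.

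Matches were few. The SP letters GGGCGG or their reverse complement occurred in the windows of Dag1, Sgcb and Sgcd and in the second Dmd window, and in 33.0% of all windows. The Dag1 window shown held them 3 times, beginning 87, 54 and 11 bases before the start, with a CCAAT beginning 36 bases before it. The second Dmd window held them 3 times on the reverse strand, and 2 of these matches overlap. CCAAT was found in 34.0% of all windows. The first Dmd window held TGACTCA, the AP-1 letters, which 4.48% of all windows hold. Neither RUNX letter string occurred in any of the 8 windows of the 6 genes, and 18.5% of all windows hold at least 1 of them. The E-box and ETS strings were not found in these 8 windows either, against 27.9% and 12.1% of all windows. A match is a string of letters and not a measured binding site, and a missing match says only that the letters are not in the window.

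Dmd encodes dystrophin, which is abundant in differentiated muscle fibres. At 2.39 Mb (chrX:82814664-85205050) it was the longest protein-coding gene in the table, and neither list had a peak in it or within 10 kb. The nearest WT peaks lay 1744 kb below its lower end and 368.5 kb above its upper end, and the nearest KO peaks lay at the same distances to within 1 kb. In the stretch between these flanking peaks, 2 WT call numbers and 3 KO call numbers were absent from the lists, so at most that many numbered calls could be missing from the lists there. Of 59 protein-coding genes of at least 1 Mb, 16 had no peak in either list, and the median was 1 peak in each list. Of 966 protein-coding genes on the X chromosome, 39.5% had a WT peak and 35.8% a KO peak, against 65.8% and 62.0% of autosomal genes.

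Utrn encodes utrophin, the relative of dystrophin found at the sarcolemma of immature muscle and at the neuromuscular junction. It spans 487.7 kb on the minus strand (chr10:12382187-12869888). Both lists had 8 peaks, of which 7 were shared and 1 was specific. Most of them lay toward the 5′ end. The first 60 kb of the gene with the 10 kb before it held 6 of 8 WT peaks and 5 of 8 KO peaks. This bound was set for Utrn alone, and the counts depend on it. It lies just beyond a shared peak centred 58.9 kb (WT) and 58.7 kb (KO) inside the gene. The peak at chr10:12869022-12869609, centred 0.572 kb inside the annotated 5′ end, had a −log10 q of 13.7 in the WT list, and its KO partner had 8.15. The next peak, centred 1.46 kb inside that end, had 23.8 and 13.8. The RefSeq start window of Utrn belongs to a start further inside the gene, chr10:12861736-12861985, and lay 3.43 kb from the nearest WT peak and 6.10 kb from the nearest KO peak. Here and below, −log10 q is the authors' significance of a peak over its local background. It depends on depth, so WT and KO values stand side by side and no change is read from them.

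In both lists the 2 strongest peaks of the 8 genes lay in Utrn, away from its 5′ end. The peak at chr10:12694706-12695104, 175.0 kb inside the gene, had a −log10 q of 76.5 and a fold enrichment of 18.9, at percentile 98.0 of the WT list. Its KO partner had a −log10 q of 71.2, at percentile 98.4 of the KO list. A second intragenic peak, chr10:12788010-12788370, had 61.3 for WT and 65.7 for KO. The peak 8.86 kb before the gene, chr10:12878618-12878878, had 46.6 and 49.3. All 3 sites were at or above percentile 90.5 of the WT list and 93.6 of the KO list. The specific peaks were weaker. The WT-specific peak at chr10:12858173-12858311 was 139 bp wide with a −log10 q of 4.71, at percentile 5.86 of its list. The KO-specific peak at chr10:12573733-12573936 had 11.9, lay 296 kb inside the gene and was 121 kb from the nearest WT peak.

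Dag1 encodes the precursor that is cleaved into α- and β-dystroglycan, the matrix receptor of the complex. The gene covers 59.1 kb on the minus strand (chr9:108204861-108263977) and had 3 WT and 2 KO peaks. The start peak at chr9:108263622-108264125 had a −log10 q of 34.6 for WT and 28.7 for KO. The WT interval was 504 bp wide. The KO interval was 820 bp wide and covered all 250 bases before the start. A second shared peak lay in the 10 kb beyond the 3′ end, at chr9:108201115-108201492, with 49.6 and 44.0. The WT-specific peak at chr9:108220456-108220651, 43.4 kb inside the gene, had a −log10 q of 20.8 and a fold enrichment of 11.9. It was the strongest specific peak of the 8 genes and the only one above the median of its list, which was 16.1 for WT. One KO call number was absent between the KO peaks on its 2 sides.

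The sarcoglycans Sgca, Sgcb and Sgcd encode the α-, β- and δ-subunits, single-pass membrane glycoproteins that assemble together. Sgca (chr11:94962777-94976327) had no peak in its gene body. Its 2 peaks were shared and both lay in the margin. The one at chr11:94979010-94979262, 2.68 kb beyond the 5′ end, had a −log10 q of 20.5 for WT and 16.2 for KO. The other, at chr11:94957938-94958719 with 41.9 and 38.4, lay 4.06 kb from the 3′ end of Sgca and 4.90 kb from an end of Col1a1, a fibrillar collagen gene. Assigned by the nearest gene end, Sgca kept 2 peaks in each list. The distances to the 2 genes are similar, so position does not settle which of them this peak belongs to. Sgcb (chr5:73632749-73647737) had the single shared peak at its start, chr5:73647285-73647817. That peak had a −log10 q of 11.4 for WT and 5.79 for KO, at percentiles 33.7 and 6.37.

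Sgcd, 1018 kb on the minus strand (chr11:46971077-47989451), had 7 WT and 9 KO peaks. All of them lay between its RefSeq start window and its 3′ end, a stretch of 408.5 kb. None lay in the 609.9 kb upstream of the window that the gene model also covers. The peak over the start window, chr11:47379081-47379618, had a −log10 q of 18.3 for WT and 12.1 for KO, and its neighbour at chr11:47377278-47377836 had 27.0 and 19.5. The strongest shared peak, chr11:47203171-47203557, had 35.7 and 27.8. Sgcd was the only one of the 8 genes with more KO than WT peaks. It had 3 KO-specific peaks and 1 WT-specific peak beside 6 shared ones. The KO-specific peak at chr11:47060155-47060364 had a −log10 q of 17.3 and lay just under the KO median of 17.6. The other KO-specific peaks, at chr11:47205485-47205758 and chr11:47005362-47005760, had 10.4 and 4.91, and the first of them lay 1.93 kb from the strongest shared peak. The WT-specific peak at chr11:47139423-47139652 had 5.20. Beside each of these 4 specific peaks, 1 or 2 call numbers of the other list were absent.

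**Figure D2:**
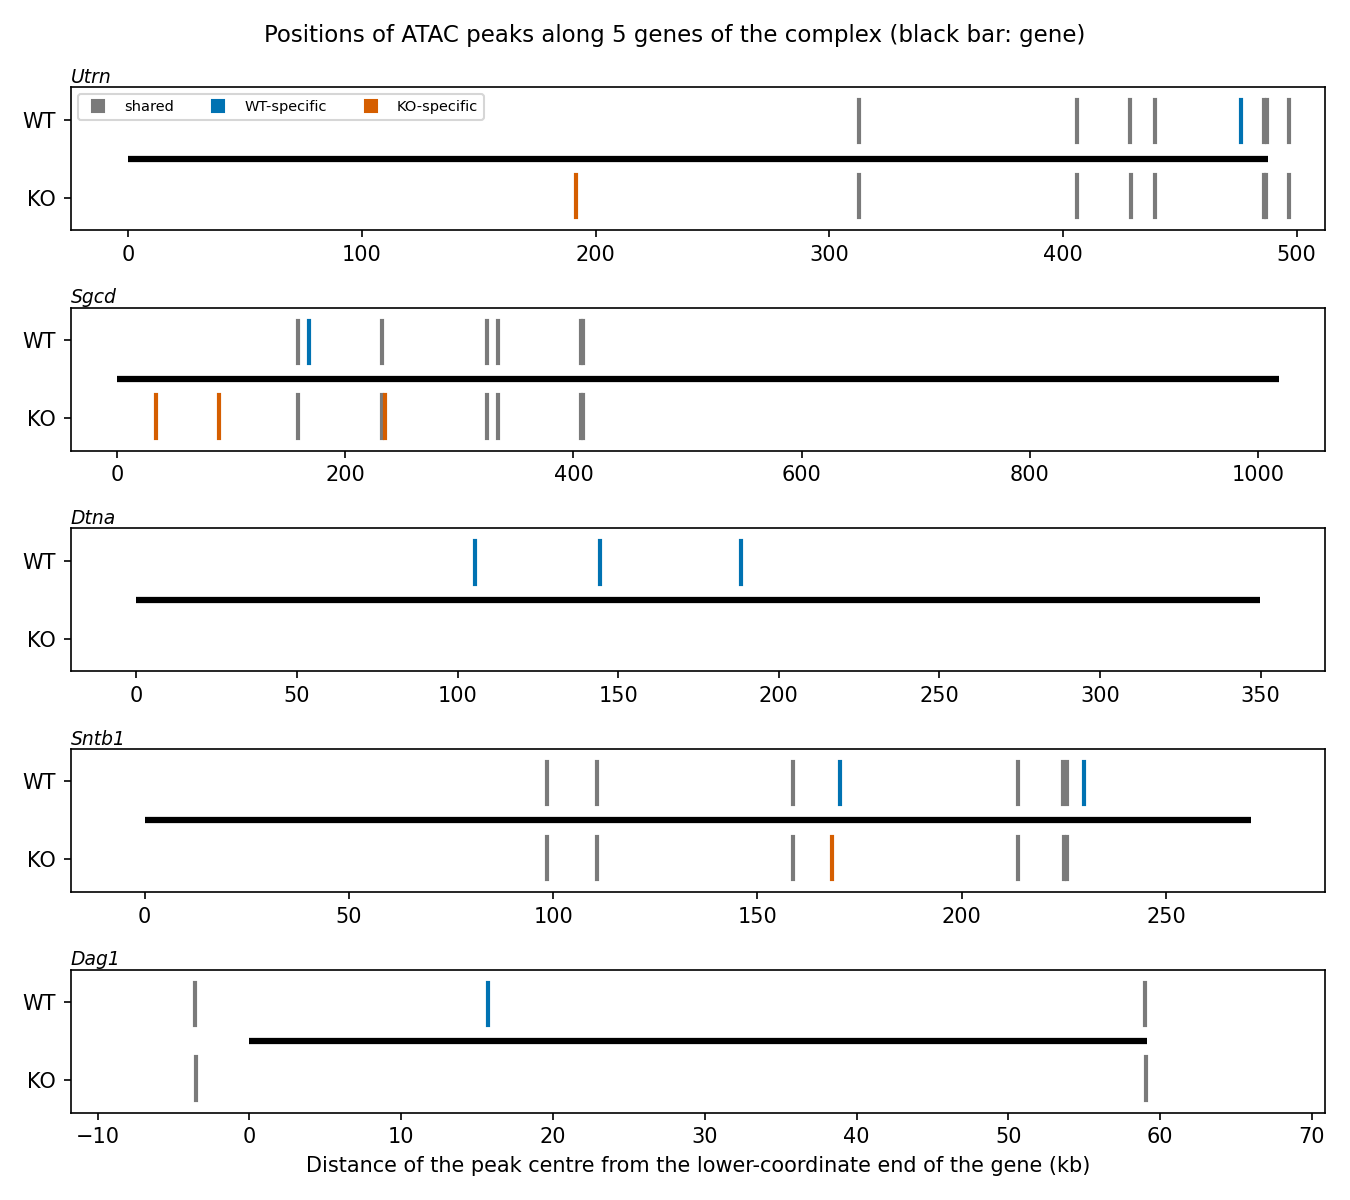
Positions of WT peaks (upper ticks) and KO peaks (lower ticks) along Utrn, Sgcd, Dtna, Sntb1 and Dag1, as the distance of the peak centre from the lower-coordinate end of the gene in kb; the black bar is the gene and colours give the class. Shared peaks stand opposite each other, the 609.9 kb at the higher end of Sgcd are empty in both lists, and Dtna has WT ticks only.

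Dtna encodes α-dystrobrevin, a cytoplasmic relative of dystrophin that binds it and the syntrophins. The gene (chr18:23310006-23659719, 349.7 kb) had 3 WT peaks, all WT specific, and no KO peak. The peak at chr18:23415147-23415436 had a −log10 q of 10.8 and a fold enrichment of 8.18. The peak at chr18:23454283-23454568 had 6.73 and 6.17. The peak at chr18:23498157-23498546 had 10.6 and 7.80. They were spaced 38.8 and 43.6 kb apart, and none lay within 100 kb of an end of the gene. All 3 were below the WT median. The nearest retained KO peaks lay 183 kb below the gene and 15.0 kb above it, and between them 4 KO call numbers were absent, so KO calls missing from the list may have lain in this stretch. Of 4460 protein-coding genes with at least 3 WT peaks, 39 (0.874%) had only WT-specific peaks and no KO peak, and Dtna was 1 of them. Those genes were not matched to Dtna for the number or strength of their peaks. Among all WT peaks below the WT median, 48.5% are WT specific, so the 0.874% does not give how rare 3 such weak peaks are.

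Sntb1 encodes β1-syntrophin, an adaptor that binds dystrophin and dystrobrevins. The gene (chr15:55636388-55907302, 270.9 kb) had 8 WT and 7 KO peaks, of which 6 were shared. All of them lay inside the gene, the outermost 98.2 kb from the lower end and 40.8 kb from the higher end. Among the WT peaks the highest −log10 q was 27.0, at chr15:55734568-55734963, and its KO partner had 18.3. The highest of the KO peaks was 19.7, at chr15:55850003-55850199, and its WT partner also had 19.7. The WT-specific peaks at chr15:55806398-55806608 and chr15:55866277-55866477 had 14.4 and 4.93. The KO-specific peak at chr15:55804416-55804610 had 5.61 and lay 1.79 kb from the first of these WT-specific peaks. It was the only specific peak of the 8 genes with no call number of the other list absent beside it.

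Over the 8 genes, 8 of 32 WT peaks were WT specific (25%, 95% Wilson interval 13.3 to 42.1), against 27.3% of the whole WT list. In the KO list 5 of 29 peaks were KO specific (17.2%, interval 7.60 to 34.5), against 9.59% of the whole KO list. Among all peaks in or within 10 kb of a protein-coding gene, 25.6% of WT peaks were WT specific and 7.95% of KO peaks KO specific. Both intervals include these shares and those of the whole list, though 7.95% is near the lower end of the KO interval. The intervals cover counting error only and treat peaks of 1 gene as separate. Without Sgcd the KO-specific share was 10.0%, or 2 of 20 peaks, and without Dtna the WT-specific share was 17.2%, or 5 of 29. Among genes with a WT peak, 39.1% had a WT-specific one, and 5 of the 7 genes did so here. Among genes with a KO peak, 12.3% had a KO-specific one, and 3 of the 6 genes did so here. These 3 genes, Utrn, Sgcd and Sntb1, held 8, 9 and 7 KO peaks. A gene with more peaks has more chances to hold a specific one. The shares over all genes were not matched for peak number, so no excess is read from them.

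The specific peaks were mostly weak. Each list was divided at its own median −log10 q. Of the weaker WT peaks, 7 of 13 were WT specific, against 48.5% of such peaks in the whole list. Of the stronger WT peaks it was 1 of 19, against 6.17%. In the KO list all 5 KO-specific peaks were among the 15 peaks under the median, where 17.7% are specific in the whole list. None of the 14 stronger KO peaks was specific, which allows a share of up to 21.5% (Wilson), against 1.45% of the whole list. Median −log10 q was 8.67 for the 8 WT-specific and 22.1 for the 24 shared WT peaks, and the whole-list medians were 8.38 and 21.1. It was 10.4 for the 5 KO-specific and 19.6 for the 24 shared KO peaks, beside 8.38 and 19.1. An unnamed extra column of the deposited specific lists repeats the start of some peaks. It marked 1 of the 8 WT-specific peaks here, the middle one of Dtna, against 10.7% of all WT-specific peaks, and 0 of the 5 KO-specific peaks, against 2.22%. Its meaning is not stated. Median width was 220.5 bp for WT-specific and 391.5 bp for shared WT peaks.

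**Figure D3:**
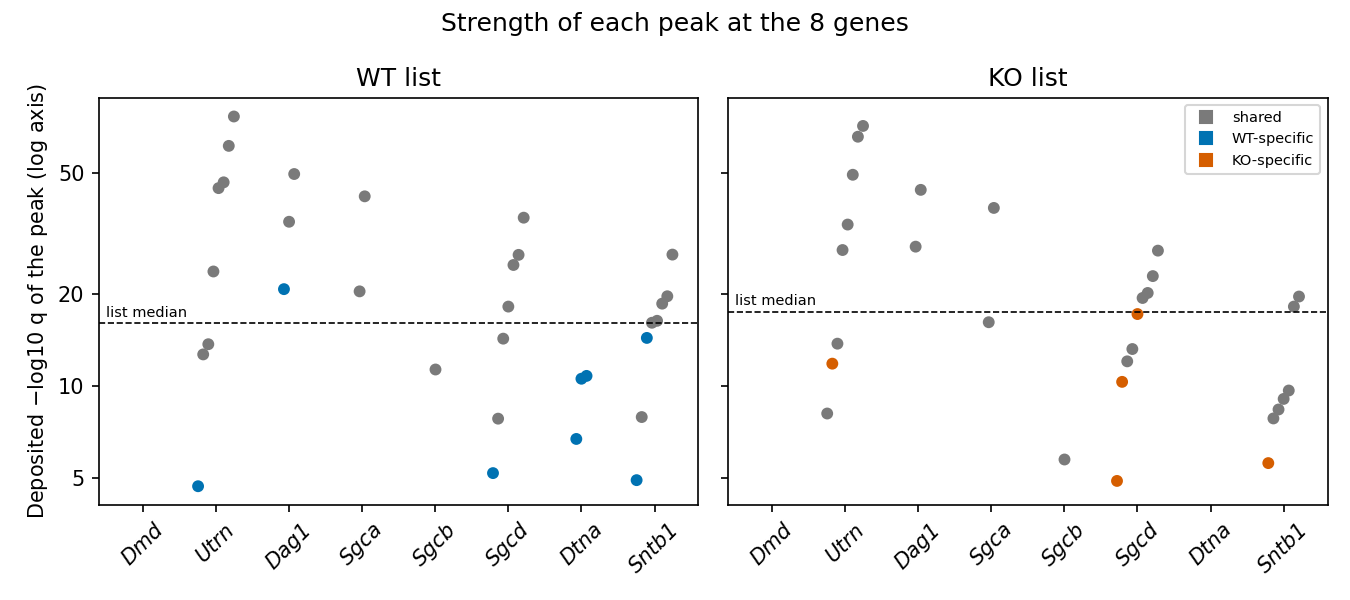
Deposited −log10 q of each peak (vertical log axis) at the 8 genes in the WT list (left) and the KO list (right), coloured by class; the dashed line is the median of the whole list. Of the 13 specific peaks only the WT-specific peak of Dag1, at 20.8, lies above its line, and the highest points are shared peaks of Utrn.

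Shared sites overlapped to different degrees. The 24 WT peaks had 24 KO partners. The KO partner covered a median of 95.7% of the WT interval, at lowest 56.6%, and the summits lay a median of 39.5 bp apart (range 4 to 250 bp). Over all 24800 shared WT peaks these medians were 93.4% and 31 bp. The WT partner covered as little as 42.1% of a KO interval, at the Sntb1 site chr15:55794969-55795400. With an overlap of at least 50% required, that site counted as KO specific and Sntb1 had 2 KO-specific peaks. The largest summit distance belonged to the Utrn peak nearest the 5′ end. The smallest covered share of a WT interval belonged to a weak peak of Sntb1 at chr15:55861107-55861387.

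Peak density varied among the genes. Per 100 kb of gene and margins, Sgca had 5.96 peaks in both lists and Sgcb 2.86, while Dag1 had 3.79 for WT and 2.53 for KO. Sntb1 had 2.75 and 2.41, Utrn 1.58 in both, Dtna 0.811 and 0, Sgcd 0.674 and 0.867, and Dmd 0 in both. The order does not follow length throughout. In the WT list Dag1 lay above the shorter Sgcb, and in both lists Dtna lay below the longer Utrn. Over all protein-coding genes the pooled density was 2.28 for WT and 1.84 for KO. The fixed margin weighs more in short genes, and both Sgca peaks came from it.

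**Figure D4:**
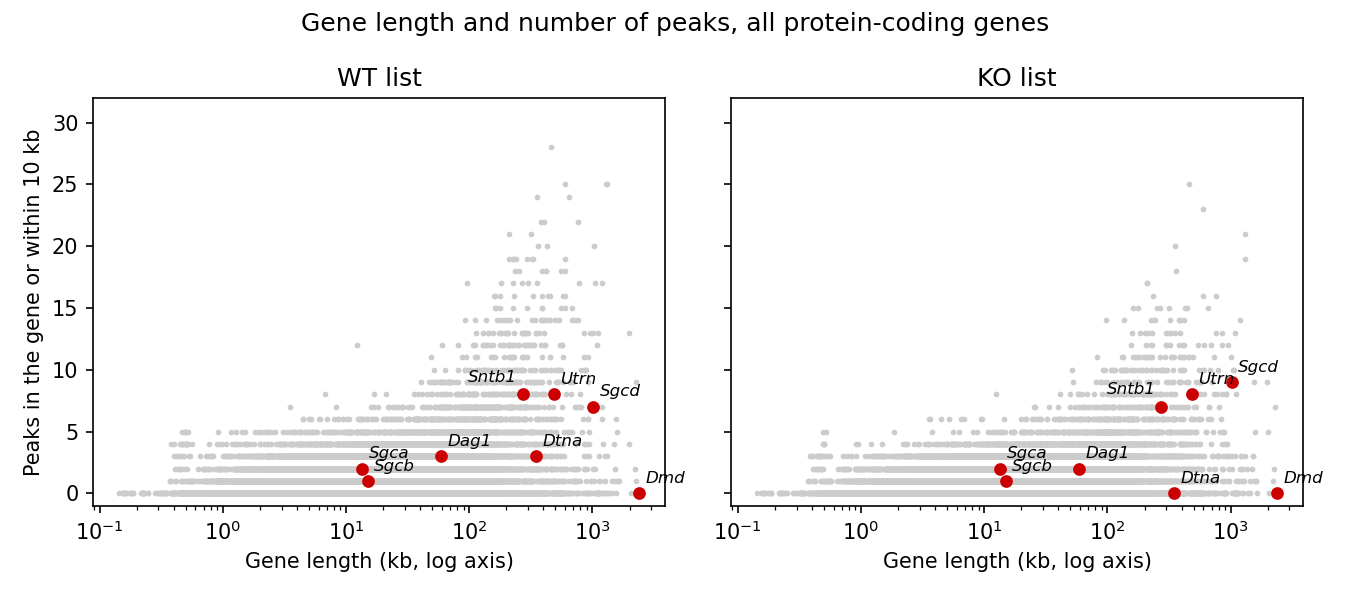
Gene length in kb (horizontal log axis) against the number of peaks in the gene or within 10 kb (vertical axis) for all 21631 protein-coding genes (grey) in the WT list (left) and the KO list (right), with the 8 genes in red. Dmd lies at the far right with 0 peaks, and Sgcd and Utrn, which are shorter, hold 7 to 9 peaks.

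Genes with the same counts of shared, WT-specific and KO-specific peaks were looked up for the 5 genes with a specific peak, and up to 3 of the nearest in length were named. For Dtna, 24 other protein-coding genes had 3 WT-specific peaks and nothing else, with Cracd and Edil3 among the nearest in length. For Utrn, 6 other genes had its counts, among them Magi1, Fmn2 and Abcc4. For Sntb1 there were 8, among them Sgip1, Ak5 and Tcf7l2, and for Dag1 there were 765, with Ppp4r1, Amot and Ube2q2 the nearest in length. No other gene had the 6 shared, 1 WT-specific and 3 KO-specific peaks of Sgcd.

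A wider list of 31 further genes of the complex, its ligands, its glycosylation and its partners had 115 WT peaks, of which 34 (29.6%, interval 22 to 38.5) were WT specific, and 93 KO peaks, of which 12 (12.9%, interval 7.54 to 21.2) were KO specific. Both intervals include the share of the whole list, 27.3% for WT and 9.59% for KO. Both lists had peaks at 26 of these genes. Sgcz, Sntg2 and Cav3 were among those with none. Among the sarcoglycans and sarcospan, Sgce had 1 WT-specific beside 2 shared peaks, while Sspn had shared peaks only. The syntrophins Sntb2 and Sntg1 each had 1 WT-specific and 1 KO-specific peak beside 2 shared ones. Of the relatives of dystrophin and dystrobrevin, Dtnb had 1 KO-specific beside 3 shared peaks and Drp2 1 WT-specific beside 1 shared peak.

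Among the extracellular ligands, Lama2, the laminin α2 chain that α-dystroglycan binds, had 4 shared, 1 WT-specific and 1 KO-specific peaks. Hspg2 and Bgn each had 1 WT-specific peak, and Agrn had a shared one only. Of the 10 genes for dystroglycan glycosylation, 8 had a WT peak and 7 of these a WT-specific one, against 39.1% of all protein-coding genes with a WT peak. That share was not matched for the number of peaks per gene. Pomgnt1 and B4gat1 had 2 WT-specific peaks each, and Pomt1, Pomt2 and Pomk had 1 each. Among membrane and cytoskeletal partners, Plec had 4 WT-specific beside 8 shared peaks, Ank2 had 4 WT-specific and 1 KO-specific, Ank3 had 3 and 1, and Nos1 had 1 WT-specific. Dysf, a membrane repair gene, had 2 WT-specific and 3 KO-specific beside 8 shared peaks.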

How the data were processed

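ATAC-seq peak lists of C2C12 cells in growth medium were used: the full WT and KO lists, the shared list and the list specific to each genotype. Per the submitters' processing notes the build is mm10. The aligner, the peak caller, the filters and the use of replicates 2 and 3 are not given in the sources used here. The fold enrichment (a ratio to local background), the −log10 p and −log10 q, the score and the summit offset of each peak are the deposited values of 1 library per genotype. They were used only within a list.

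Peaks were assigned to RefSeq genes of GRCm38.p6, whose coordinates are those of mm10, and all 8 members, 31 wider genes and 21 marker genes matched by symbol. Coordinates count from 1. Overlap was checked against bedtools 2.31.1 and tested on simulated data (6 of 6 checks met). The work used Python 3.11.15 with pandas 2.3.3. Start windows and their sequences are RefSeq's, and peaks elsewhere were not read as sequence. The members and gene lists were chosen with earlier results of these data known. All members were named, with each specific peak and the highest peaks, and of the wider list the genes with a specific peak. Some genes of the wider list and of the genes with like counts are not reported here by name. Alternatives varied the overlap, the threshold on −log10 q, the margin, the assignment and the genes included.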

Additional observations from a re-analysis of the deposited data

How the results depend on the processing

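The WT-specific share stayed within its interval under 17 of 18 alternatives and the KO-specific share under 17 of 18. The exception kept only the stronger peaks, those not under each list's median −log10 q, and gave 5.26% for WT and 0% for KO, since it removes the weak peaks by construction. The intervals are wide, 13.3 to 42.1 for WT and 7.60 to 34.5 for KO, so staying within them is a loose criterion. Leaving out 1 gene at a time gave 17.2% to 29.2% for WT and 10.0% to 19.0% for KO. Leaving out Dmd, which had no peak, could not change either share. The same holds for the KO share without Dtna, which had no KO peak. The counts of 32 WT and 29 KO peaks became 50 and 46 with a margin of 50 kb, and stayed within 1.5 times with another assignment, without a margin or with a −log10 q of at least 10. The stronger peaks alone numbered 19 for WT and 14 for KO. One alternative was chosen after seeing the data, leaving out margin peaks in or within 1 kb of another protein-coding gene, and it removed no peak. It therefore could not change any share or count. Per gene, 272 of 320 counts stayed within 1.5 times, but many of these could not have changed. A different overlap rule does not alter the number of peaks, and Dmd had 0 peaks under every alternative. Assigned by the nearest gene end, Utrn had 15 peaks in each list, 4 of them specific in each. Sntb1 had 15 WT peaks, 6 of them specific, and 11 KO peaks, 2 of them specific. Dtna had 2 KO peaks beside 5 WT peaks, 3 of them still WT specific.

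No paired analysis was possible because there is 1 list per genotype, with values named for replicate 1, and for the same reason no replicate was left out.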

Other observations

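Call numbers of the other list were absent beside 8 of 8 WT-specific and 4 of 5 KO-specific peaks of the complex genes. Over the whole lists this held for 87.1% of WT-specific and 87.4% of KO-specific peaks that lie between peaks of the other list.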
